A study of Mus musculus with 24 samples.

Results

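The major urinary protein (Mup) genes examined here were the 7 genes Mup1, Mup3, Mup7, Mup10, Mup11, Mup20 and Mup21, matched by symbol to the Ensembl gene IDs of the files. They are 7 of 48 loci with a Mup symbol and of 41388 genes in all. Major urinary proteins are small secreted lipocalins that bind volatile pheromones. In mice the liver makes most of them, the kidney passes them into the urine, and males make more than females. Pulses of growth hormone acting through STAT5b, together with androgen, glucocorticoid and thyroid hormone, are known to drive their transcription in hepatocytes. Mup20 encodes darcin, a male pheromone protein that females learn to recognise, and Mup1 has been linked in mice to glucose and lipid metabolism.

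RNA was sequenced from mouse livers of a factorial design with 4 groups of 6 libraries, in which the factors were loss of Gpt2, the gene of alanine transaminase 2, in the liver and an 18 h fast. The KO fasted and KO fed livers carried the liver-specific knockout, and the control fasted and control fed livers came from fl/fl mice that are also described as WT. The promoter that drives Cre, the strain and the age were not given in the sources used here. The labels do not state that each library is a separate animal, so p-values measure the spread between these libraries, which may be technical. The library labelled control fed 6 came as a damaged file and the library labelled control fasted 4 was kidney-like, and both were left out. The 22 libraries used were 6 KO fasted, 5 control fasted, 6 KO fed and 5 control fed livers, with 18.4 to 55.3 M reads assigned to genes.

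Levels are reads per M assigned reads (CPM) after TMM scaling for library composition. The kidney-like library was scaled in a separate run that included it. It had a summed level of 16510 CPM over 13 kidney markers, against 0.41 to 23.2 CPM in the 22 used. Its 8 hepatocyte markers summed to 771 CPM, against 76620 to 158100 CPM in the 22, and the 7 Mup genes had 853 reads in it. Gpt2 lay between 52.1 and 148 CPM in KO fasted livers, against 557 to 795 CPM in control fasted livers, and between 48.3 and 78.0 CPM in KO fed livers, against 307 to 447 CPM in control fed livers (exact two-sided permutation test, p = 0.00216 in each feeding state). The titles carry the letter M. Ddx3y, a Y-linked gene, was between 28.1 and 57.5 CPM in the 22 libraries, and Xist, the RNA of the inactive X chromosome in females, did not exceed 0.54 CPM.

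All 7 genes lie on the minus strand of chromosome 4 in GRCm38 coordinates, within a cluster of 47 Mup loci that spans 2.19 Mb. In map order Mup7 (ENSMUSG00000073842) runs from 60066469 to 60070475, Mup1 (ENSMUSG00000078683) from 60498012 to 60501960, Mup10 (ENSMUSG00000078680) from 60578260 to 60582199 and Mup11 (ENSMUSG00000073834) from 60658466 to 60662411. Mup20 (ENSMUSG00000078672) runs from 62050234 to 62054158, Mup3 (ENSMUSG00000066154) from 62083476 to 62087342 and Mup21 (ENSMUSG00000066153) from 62147932 to 62150863, all at the other end of the cluster.

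Before their start sites the genes with a sequence at hand form 2 groups, and these stretches are shown because they tell how alike the copies are, which bears on every level given here. RefSeq start-site windows (GRCm38.p6, minus strand, 250 bases before to 50 bases after each gene's start) were matched for 5 of the 7, Mup3, Mup7, Mup10, Mup11 and Mup21. The 4 windows below are written 5′ to 3′ with every match of TATATAA on either strand in capitals, a motif chosen after the sequences were seen. Mup10 and Mup11 stand for one group, and Mup3 and Mup21 for the other.
Mup10 (chr4:60582106-60582405): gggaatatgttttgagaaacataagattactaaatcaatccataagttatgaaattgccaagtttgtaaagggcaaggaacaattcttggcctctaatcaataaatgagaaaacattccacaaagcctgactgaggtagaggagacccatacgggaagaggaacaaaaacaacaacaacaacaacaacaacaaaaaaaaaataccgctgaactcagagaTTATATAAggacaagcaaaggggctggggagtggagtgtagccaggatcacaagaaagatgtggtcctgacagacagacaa
Mup11 (chr4:60662346-60662645): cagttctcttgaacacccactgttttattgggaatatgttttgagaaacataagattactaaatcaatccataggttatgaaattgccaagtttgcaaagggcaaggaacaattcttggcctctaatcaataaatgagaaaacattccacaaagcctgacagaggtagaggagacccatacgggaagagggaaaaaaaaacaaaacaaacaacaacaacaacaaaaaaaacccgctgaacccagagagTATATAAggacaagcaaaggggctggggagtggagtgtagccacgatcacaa
Mup3 (chr4:62087268-62087567): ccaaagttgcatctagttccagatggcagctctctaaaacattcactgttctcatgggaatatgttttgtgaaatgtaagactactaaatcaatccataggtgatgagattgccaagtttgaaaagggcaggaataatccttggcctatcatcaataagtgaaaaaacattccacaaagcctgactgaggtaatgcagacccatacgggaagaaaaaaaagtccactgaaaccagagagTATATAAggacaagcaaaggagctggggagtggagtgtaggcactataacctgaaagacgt
Mup21 (chr4:62150792-62151091): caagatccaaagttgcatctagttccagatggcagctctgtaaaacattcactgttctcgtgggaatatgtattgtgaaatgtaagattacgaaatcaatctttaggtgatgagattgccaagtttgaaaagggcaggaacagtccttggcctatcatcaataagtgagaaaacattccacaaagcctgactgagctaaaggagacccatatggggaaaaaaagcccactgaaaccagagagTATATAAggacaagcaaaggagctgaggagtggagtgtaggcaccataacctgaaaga

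Over the aligned bases, the windows of Mup10 and Mup11 were 94.5% identical and those of Mup3 and Mup21 92.9% identical, whereas Mup11 and Mup3 shared 76.6%. The window of Mup7 was 98.5% identical to that of Mup11 over 194 aligned bases, but its RefSeq start lies further upstream and it holds no TATATAA. The other 4 windows each hold TATATAA, which stands in 3.2% of the 32851 RefSeq windows of the same length. On the genes' own strand the match begins 30 bases before the start in Mup10 (an overlapping match of the other strand begins at 31), 11 in Mup3, 8 in Mup21 and 2 in Mup11, so the RefSeq starts of these genes are not placed alike. TTCNNNGAA (the STAT5 motif), TATAAA and TTGCNNAA (a C/EBP motif) were searched on both strands and had no match in the 5 windows, against 8.3%, 13.6% and 10.8% of all windows.

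The transcripts are also alike, which bears on how reads could be assigned. The longest GENCODE M21 transcripts of Mup1 and Mup10 were 98.8% identical, those of Mup1 and Mup11 98.7% and those of Mup10 and Mup11 98.4%. Mup7 was 94.7% identical to Mup1, with which Mup3 shared 73.0%. Mup20 shared 90.1% with Mup1, 85.9% with Mup7, 88.0% with Mup21 and 75.7% with Mup3. Of all 100-base windows of the longest transcript, the share that occurred in no other gene's transcripts was 97.1% for Mup3, 95.5% for Mup21 and 61.2% for Mup20. It was 18.4% for Mup7, 16.5% for Mup11, 14.6% for Mup10 and 12.8% for Mup1, so the levels of these 4 genes are uncertain as single genes. The sum of the 7 is given too, but it does not remove this uncertainty, because windows are also shared outside the 7. Mup1 shared 75.4% of these windows with Mup12, Mup11 66.2% with Mup18 and Mup10 85.0% with Mup22, a GENCODE gene without counts here. Mup7 shared most with Mup1, at 47.5%. The read length and the handling of reads that match several genes were not given in the sources used here.

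Mup transcripts were abundant, and Mup3 held the most assigned reads. The 7 genes held 0.453% to 1.54% of all assigned reads (median 0.934% over the 22 libraries) and 78.4% to 96.4% of the reads of all Mup loci. Per kilobase of the deposited gene length, the mean level over the 22 libraries was 5160 CPM per kb for Mup3, 1619 for Mup20 and 1171 for Mup7, the 3 highest. Mup10 followed at 411 CPM per kb, Mup21 at 354, Mup11 at 227 and Mup1 at 18.5. Mup3 alone made up between 44.2% and 70.0% of the reads of the 7 genes. Within single libraries Mup3 was above Mup20 in 22 of 22 and Mup11 above Mup1 in 22 of 22, per kb. Mup20 was above Mup7 in 17, Mup7 above Mup10 in 21, Mup10 above Mup21 in 17 and Mup21 above Mup11 in 19 of 22, so these neighbours are not separated in every library. Mup3 had 97.1% unique 100-base windows, against 12.8% for Mup1 and 18.4% for Mup7. How far the assignment of reads with several matches sets this order and the Mup3 share was not tested.

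In the summed level of the 7 genes, given as TMM-scaled CPM (CPM after scaling for library composition), KO fasted livers had 5131, 8669 and 12580 as lowest, median and highest value. The 5 control fasted livers had 6756, 7872, 11760, 10930 and 8661 CPM. KO fed livers had 6002, 8664 and 10650 CPM as lowest, median and highest value, and the 5 control fed livers had 9584, 9687, 14480, 11280 and 12810 CPM. The ranges of the groups overlapped in all 4 pairwise comparisons. The control fed livers were the high group, and 5 of the 6 KO fed livers lay below every control fed liver. Over all Mup loci the sum averaged 9656 CPM in KO fasted, 10220 CPM in control fasted, 9309 CPM in KO fed and 13570 CPM in control fed livers.

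**Figure D1:**
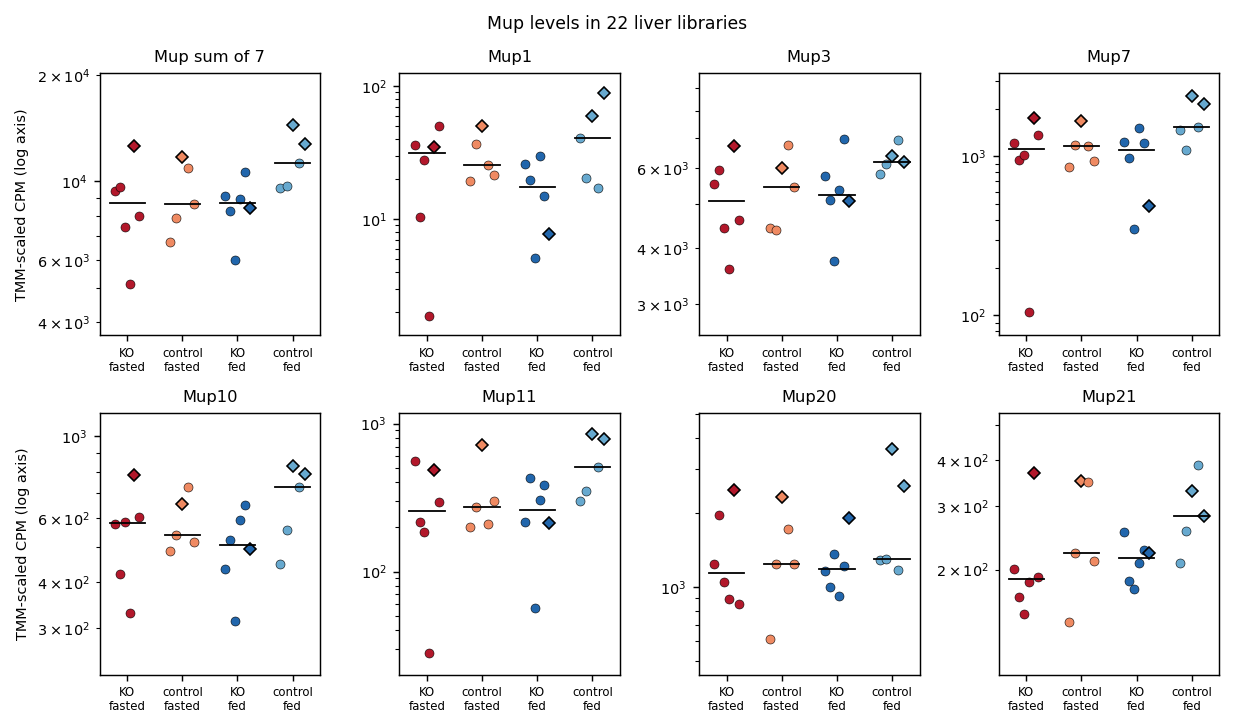
TMM-scaled CPM (log axis) of the sum and of each Mup gene in every library, grouped as KO fasted (6), control fasted (5), KO fed (6) and control fed (5); bars are medians, and diamonds mark the 5 libraries with title numbers up to 1025. The sum spans 5131 to 14480 CPM, control fed medians are the highest for every gene, and groups overlap in every panel.

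Whether loss of Gpt2 in the liver changed Mup expression was asked first in fed mice. The sum averaged 8550 ± 1514 CPM in KO fed livers (SD, n = 6) and 11570 ± 2098 CPM in control fed livers (SD, n = 5), 73.9% of the control level and a log2 difference of -0.44. Over all Mup loci the KO fed mean was 68.6% of the control level, with a log2 difference of -0.53. All 7 genes had a negative fold change, and none passed an adjusted p of 0.05 over all 16757 genes tested (edgeR quasi-likelihood test with Benjamini-Hochberg adjustment, adjusted p between 0.524 and 0.676), in a comparison that called 0.00597% of all genes. Mup1 and Mup10 had an unadjusted p under 0.05, as did 1509 of all genes, and DESeq2 and limma voom called none of the 7. In bulk tissue, fewer cells of a type and less RNA per cell cannot be told apart.

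Mup3, the member with the most assigned reads, had 3743, 5225 and 6941 CPM as lowest, median and highest value in KO fed livers. Control fed livers had 5822, 6117, 6395, 6926 and 6179 CPM. As with the sum, 5 KO fed livers lay below all control fed livers, while the sixth was the highest of all 22. The log2 fold change of Mup3 was -0.24 ± 0.14 (SE), with a 95% interval of -0.53 to 0.06. Mup20, which encodes darcin, had 918, 1185 and 1900 CPM in KO fed livers, against 1286, 1296, 3634, 1171 and 2553 CPM in control fed livers. Its log2 fold change was -0.66 ± 0.37 (SE), and 3 KO fed livers lay below all control fed livers. Without control fed 3, the highest library, the Mup20 value was -0.33, and without KO fed 3 the Mup3 value was -0.16.

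Mup7 had 349, 1100 and 1521 CPM in KO fed livers, against 1475, 1091, 2387, 1534 and 2129 CPM in control fed livers. This gave a log2 fold change of -0.84 ± 0.47 (SE, adjusted p = 0.656, edgeR). The low end of the KO fed range came from KO fed 3 and KO fed 6, at 349 and 485 CPM. The remaining members had log2 fold changes of -1.40 ± 0.63 (SE) for Mup1, -1.07 ± 0.58 for Mup11, -0.46 ± 0.24 for Mup21 and -0.42 ± 0.20 for Mup10. The 95% interval of Mup1 reached from -2.71 to -0.08, which covers both a near-zero and a several-fold decrease. Of the 41 other Mup loci, 26 had enough reads to test, 24 of these had a negative fold change (median log2 -1.11) and none was called.

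Other gene groups had the following levels in the same livers. Summed endothelial markers (8 genes) were between 195 and 299 CPM in KO fed livers, against 130 to 200 CPM in control fed livers, and Kupffer cell and macrophage markers (10 genes) between 177 and 282 CPM, against 130 to 220 CPM, both with overlapping ranges. Summed hepatocyte markers overlapped too, at 76620 to 135400 CPM in KO fed livers and 78010 to 114100 CPM in control fed livers. The sum of 15 lipocalins outside the Mup family did not overlap, at 4788 to 5355 CPM in KO fed livers and 5807 to 6489 CPM in control fed livers. How often the ranges of all genes stay apart in this comparison was not counted, so this sum cannot be called unusual. None of these marker or lipocalin genes was called in this comparison, and their part in the Mup values was not tested. None of the 31 growth hormone and Mup regulators, 20 tested male-biased or 20 tested female-biased genes was called either. Orm2, an acute-phase lipocalin, had a log2 fold change of -1.10 ± 0.22 (SE, adjusted p = 0.0874, edgeR), Orm1 one of -0.60 ± 0.13 (adjusted p = 0.0983) and Foxa1, a liver forkhead factor, one of -0.80 ± 0.17 (adjusted p = 0.0983). DESeq2 called all 3, with adjusted p of 0.00675 for Orm2, 0.0145 for Orm1 and 0.0172 for Foxa1. Of 33 alternatives, 27 left Orm2 uncalled, 31 left Orm1 uncalled and 31 left Foxa1 uncalled.

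In fasted mice the group means of the sum were close. It averaged 8692 ± 2505 CPM in KO fasted livers (SD, n = 6) and 9196 ± 2096 CPM in control fasted livers (SD, n = 5). None of the 7 was called, in a comparison that called 0.00597% of all genes (edgeR, adjusted p = 1 for each member). No member had an unadjusted p under 0.05, against 672 of all genes, and DESeq2 and limma voom called none. Log2 fold changes lay between -0.28 ± 0.24 (SE) for Mup21 and -0.02 ± 0.37 for Mup20, and that of Mup3 was -0.07 ± 0.15.

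Averaged over feeding states, Mup21 had the smallest p of the members, with a log2 fold change of -0.37 ± 0.17 (SE, unadjusted p = 0.0369, adjusted p = 0.538, edgeR). This averaged comparison called 0.0358% of all genes and none of the 7, by edgeR, DESeq2 or limma voom, and Mup21 was the only member with an unadjusted p under 0.05. Of the 6 genes called, 2 were endothelial markers, Cdh5 (log2 fold change 0.75 ± 0.14, SE) and Kdr (0.59 ± 0.11), both higher in KO livers with an adjusted p of 0.0288 (edgeR). The Cdh5 call held in 19 and the Kdr call in 16 of 32 alternatives, and their part in the Mup values was not tested. The interaction, which asks whether fasting acted differently in the 2 genotypes, was positive for all 7, from 0.17 ± 0.21 (SE) for Mup3 to 1.20 ± 0.88 for Mup1 on the log2 scale. None of the 7 was called (edgeR, adjusted p = 1 for each), in a comparison that called 0.00597% of all genes. No member had an unadjusted p under 0.05, against 786 of all genes, and DESeq2 and limma voom called none.

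**Figure D2:**
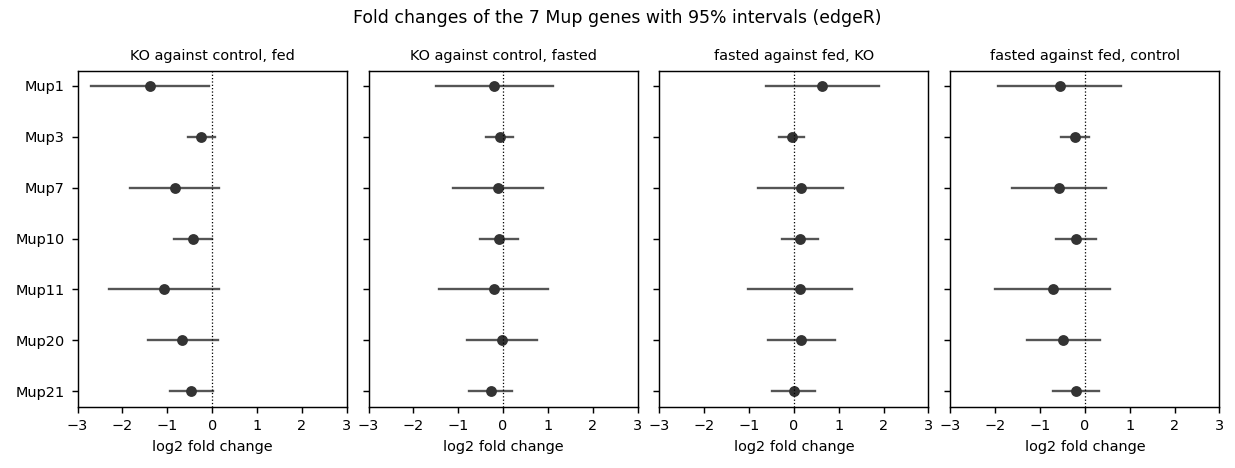
Log2 fold changes (points) and 95% intervals (lines) of the 7 Mup genes from the edgeR fit in 4 comparisons. The points for KO against control in fed livers lie between -1.40 and -0.24, all intervals but those of Mup1 and Mup10 in that panel include 0, and the intervals of Mup3 are the shortest in each panel.

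Fasting lowered some male-biased liver genes, and none of the 7 Mup genes was called. In control livers the sum averaged 9196 ± 2096 CPM after the fast and 11570 ± 2098 CPM when fed (SD, n = 5 each), a log2 difference of -0.34. Over all Mup loci that difference was -0.41. All 7 fold changes were negative, from -0.19 ± 0.25 (SE, log2) for Mup21 to -0.72 ± 0.61 for Mup11, and that of Mup3 was -0.22 ± 0.15 with a 95% interval of -0.53 to 0.09. The sizes moved with single libraries, and none of these values was called. Mup20 (-0.48) was -0.15 without control fed 3, -0.29 without control fasted 1 and -0.73 without control fasted 3, Mup1 (-0.57) was -0.16 without control fed 5, and Mup11 was -1.19 without control fasted 3. Mup21 was -0.04 without control fasted 1, -0.07 without control fed 4, -0.29 without control fed 1 and -0.33 without control fasted 3 or 5. Mup10 (-0.20) was -0.31 without control fed 1, -0.13 without control fed 5 and -0.11 without control fed 3. None of the 7 was called (edgeR, adjusted p between 0.487 and 0.772), in a comparison that called 8.12% of all genes. No member had an unadjusted p under 0.05, against 3276 of all genes, and DESeq2 and limma voom called none. Of the 26 other Mup loci tested, 24 had a negative fold change (median log2 -0.81) and none was called.

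In KO livers the sum averaged 8692 ± 2505 CPM after the fast and 8550 ± 1514 CPM when fed (SD, n = 6 each). The members' log2 fold changes lay between -0.05 ± 0.14 (SE) for Mup3 and 0.63 ± 0.60 for Mup1. None of the 7 was called (edgeR, adjusted p between 0.757 and 0.995), in a comparison that called 6.14% of all genes. No member had an unadjusted p under 0.05, against 2678 of all genes, and DESeq2 and limma voom called none. Averaged over both genotypes, fasting called 14.3% of all genes and none of the 7 (edgeR, adjusted p between 0.474 and 0.978). There was no member at an unadjusted p under 0.05, against 4159 of all genes, and DESeq2 and limma voom called none. The Mup3 interval in that average was -0.34 to 0.07 on the log2 scale. Of the 26 other Mup loci tested, 1 was called lower in that average, the pseudogene Mup-ps13, with a log2 fold change of -1.22 ± 0.38 (SE, adjusted p = 0.0265, edgeR). That call was lost without control fed 1 (adjusted p = 0.0578) or control fed 5 (0.0559) and with the kidney-like library (0.118).

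Of the 20 male-biased genes, 6 fell and none rose with fasting in KO livers, where 3.26% of all genes fell and 2.88% rose. Their median log2 fold change there was -0.31, against 0.01 over all genes. In control livers 7 fell and none rose, where 4.13% of all genes fell and 3.99% rose, with a median of -0.73, against 0 over all genes. Hsd3b5, a male-specific steroid dehydrogenase of the liver, had 4.42, 22.1 and 34.6 CPM as lowest, median and highest value in KO fasted livers, against 131, 174 and 212 CPM in KO fed livers. In control fasted livers it lay between 3.48 and 23.1 CPM, against 119 to 242 CPM in control fed livers. The fed and fasted ranges of Hsd3b5 do not overlap in either genotype, and its log2 fold change was -3.10 ± 0.49 (SE) in KO and -3.90 ± 0.56 in control livers. Selenbp2, a selenium-binding protein gene, had log2 fold changes of -2.45 in KO and -3.34 in control livers, and Nudt7, a peroxisomal coenzyme A hydrolase, had -2.18 in KO and -2.87 in control livers. Smaller decreases were called for Egfr, the receptor for epidermal growth factor (-0.57 in KO and -0.62 in control livers), and Alas2, an enzyme of haem synthesis (-0.47 in KO and -0.76 in control livers).

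Of the 31 growth hormone and Mup regulators, 3 rose and 2 fell with fasting in KO livers, and 2 rose and 2 fell in control livers. Over all genes 2.88% rose and 3.26% fell in KO livers, and 3.99% rose and 4.13% fell in control livers. The median log2 fold change of the regulators was 0.04 in KO and -0.29 in control livers, against 0.01 and 0 over all genes. Ghr, the growth hormone receptor, averaged 255 ± 33.7 CPM in KO fasted and 433.5 ± 78.5 CPM in KO fed livers (SD, n = 6 each), a log2 fold change of -0.77 ± 0.11 (SE). It averaged 231 ± 21.8 CPM in control fasted and 383 ± 30.2 CPM in control fed livers (SD, n = 5 each), a log2 fold change of -0.73 ± 0.12. Ppara, the fatty acid-sensing receptor of the fasting response, rose by 0.67 ± 0.14 in KO and 0.76 ± 0.15 in control livers. In KO livers Igfals, which encodes a subunit of the circulating IGF1 complex, fell by 0.77. Hnf4a, a hepatocyte transcription factor, rose there by 0.48, and Foxa3, a forkhead factor, by 1.23 (adjusted p = 0.0497, edgeR). In control livers these genes had the same direction and were not called. Igfals was -0.46 there (adjusted p = 0.126, edgeR), Hnf4a 0.32 (0.0983) and Foxa3 0.78 (0.289). In control livers Thrb, a thyroid hormone receptor, fell by 0.50. Cux2, a repressor of male-biased genes known from female mouse liver, rose there by 3.76 and was low in every group. Neither was called in KO livers, where Thrb was -0.37 (adjusted p = 0.0661, edgeR) and Cux2 1.87 (0.242). None of the 31 regulators was called in the interaction. The Thrb call was lost without control fed 3 (adjusted p = 0.0519) and the Cux2 call without control fed 1 (0.0518) or control fed 3 (0.0542). Stat5b, the main growth hormone effector, was not called, with -0.37 ± 0.14 (SE, adjusted p = 0.109, edgeR) in KO and -0.34 ± 0.15 (adjusted p = 0.187) in control livers, nor was Zhx2, a repressor of several liver genes (-0.24 ± 0.15 in KO and -0.48 ± 0.17 in control livers).

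For the lists that follow, the shares over all genes were 2.88% risen and 3.26% fallen in KO livers, and 3.99% and 4.13% in control livers. Female-biased genes had a median log2 fold change of 0.32 in KO and 0.34 in control livers. Among these genes, 3 of 20 tested rose and none fell with fasting in KO livers, and 6 rose and 1 fell in control livers. Those that rose in both genotypes were Cyp4a14, a fatty acid hydroxylase, Acot3, a peroxisomal thioesterase, and Fmo2, a flavin monooxygenase. Cyp4a14 rose by 4.86 ± 0.63 (SE, log2) in KO and 6.20 ± 0.74 in control livers, and Cyp4a14 and Acot3 are also known targets of Ppara. Of 11 lipocalins outside the Mup family that were tested, 1 rose in KO livers, and 1 rose and 4 fell in control livers. Their median log2 fold change was -0.07 in KO and -0.69 in control livers. Rbp4, the plasma carrier of retinol, rose by 0.67 ± 0.09 in KO and 0.65 ± 0.10 in control livers. Orm1, an acute-phase lipocalin, fell by 0.93 ± 0.14 in control livers, and its value in KO livers was -0.19 ± 0.13 (adjusted p = 0.544, edgeR). The interaction for Orm1 was 0.74 ± 0.19 (adjusted p = 0.473), so a difference in the fasting effect between genotypes was not called. Of 22 secreted hepatocyte proteins none was called in KO livers, and 2 rose and 4 fell in control livers. Of 16 secretory chaperones 1 rose in KO livers and 5 fell in control livers. Median log2 fold changes were 0.07 in KO and -0.15 in control livers for the secreted proteins, and -0.12 and -0.49 for the chaperones.

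**Figure D3:**
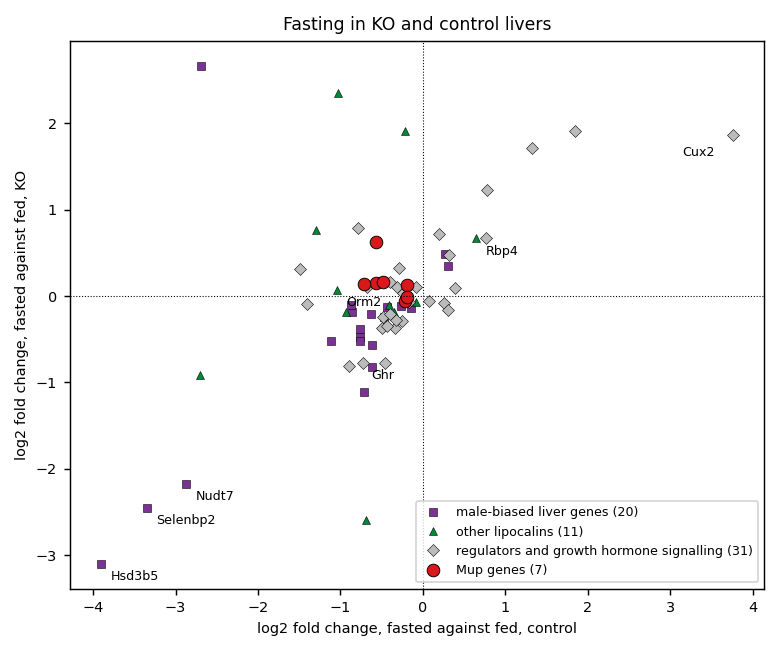
Log2 fold change of fasted against fed livers in KO mice (y axis) and control mice (x axis) for the 7 Mup genes (red circles) and the tested genes of 3 lists, each point 1 gene. Hsd3b5, Selenbp2 and Nudt7 sit at the lower left, Hsd3b5 at -3.10 in KO and -3.90 in control livers, while the Mup genes lie between -0.05 and 0.63 in KO and between -0.72 and -0.19 in control livers.

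Libraries of 1 group differed more in some members than in others. From the lowest to the highest of the 22 libraries, Mup3 varied 1.93-fold, Mup10 2.64-fold, Mup21 2.70-fold and Mup20 5.89-fold. Mup7 varied 22.7-fold, Mup11 30.1-fold and Mup1 47.8-fold. Within groups the SD of the log2 level was 0.27 for Mup3, close to the median of 0.25 over 6989 genes with a mean of at least 10 CPM. It was 1.20 for Mup1, 1.10 for Mup11 and 0.94 for Mup7, at percentiles 99.7, 99.6 and 99.3 of those genes, and 0.62 for Mup20, 0.40 for Mup21 and 0.37 for Mup10. Without KO fasted 4 it was 0.57 for Mup7, 0.89 for Mup1 and 0.82 for Mup11, and Mup20, at 0.62, then lay above Mup7. By group, the SD of Mup7 was 1.48 in KO fasted, 0.37 in control fasted, 0.85 in KO fed and 0.45 in control fed livers. Over all 22 libraries the most variable 3 genes are among the 4 with the fewest unique transcript windows, and Mup10 is the exception.

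**Figure D4:**
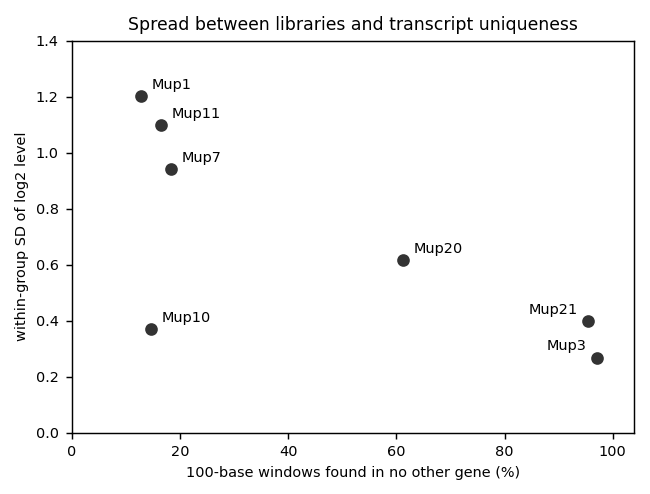
Within-group SD of the log2 level over 22 libraries (y axis) against the percentage of 100-base transcript windows found in no other gene (x axis), 1 point for each Mup gene. Mup1, Mup11 and Mup7 combine few unique windows (12.8% to 18.4%) with an SD of 0.94 to 1.20 (0.57 to 0.89 without KO fasted 4), Mup10 has 14.6% and 0.37, and Mup3 97.1% and 0.27.

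The lowest and highest values came from few libraries. In KO fasted 4, Mup7 was at 105 CPM, Mup11 at 28.2 CPM and Mup1 at 1.87 CPM (83 reads), while Mup21 was at 185 CPM, near the KO fasted median of 188 CPM. KO fed 3 had 349 CPM of Mup7, 56.9 CPM of Mup11 and 5.09 CPM of Mup1, with Mup20 at 1357 CPM, above the KO fed median of 1185 CPM. Mup7 made up 2.05% of the reads of the 7 genes in KO fasted 4 and as little as 5.78% in KO fed livers, against a median of 13.3% over all libraries. The opposite end was held by control fed 3, which had the highest Mup7, Mup10, Mup11 and Mup20 levels and the highest sum.

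**Figure D5:**
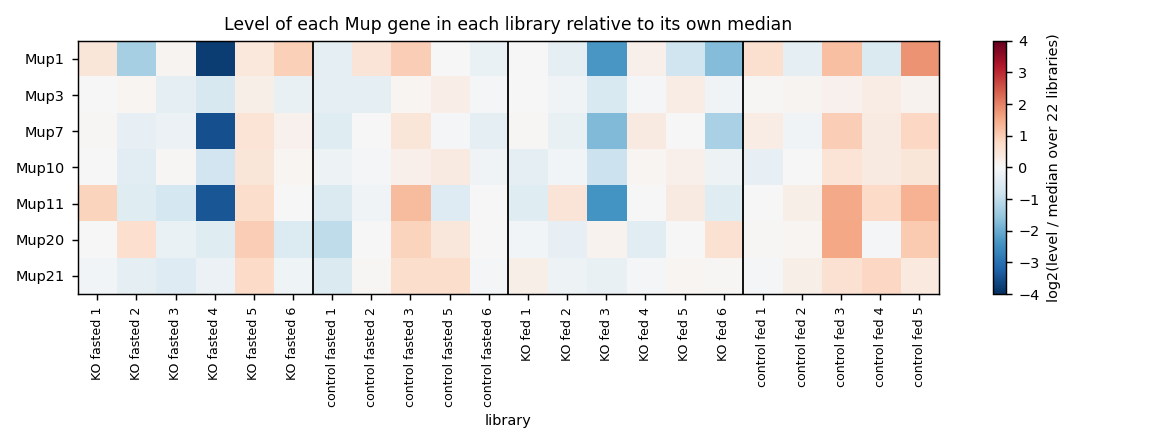
Level of each Mup gene (rows) in each of the 22 libraries (columns, grouped as KO fasted, control fasted, KO fed and control fed) as log2 of its ratio to the gene's own median; blue is lower and red is higher. KO fasted 4 and KO fed 3 are low for Mup1, Mup7 and Mup11, and Mup3 is nearly even across libraries, within 3591 to 6941 CPM.

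Across the 22 libraries Mup1, Mup7 and Mup11 were most alike, with Mup10 close to them, and Mup20 was least like them before group means were removed. The log2 levels of Mup1 and Mup7 had a Pearson r of 0.92 (0.91 after group means were removed), and Mup7 and Mup11 one of 0.91 (0.89). Mup1 and Mup11 had an r of 0.84 (0.82), Mup10 and Mup11 one of 0.83 (0.80) and Mup7 and Mup10 one of 0.79 (0.76). Mup3 and Mup21 had an r of 0.72 (0.66). Mup20 resembled Mup1 and Mup7 least, at 0.33 (0.24) and 0.39 (0.30), and was closest to Mup21, at 0.64 (0.60). Mup21 and Mup1 had 0.38 (0.23), so within groups Mup21 was as far from Mup1 as Mup20 was. Without KO fasted 4 the values were 0.87 (0.83) for Mup1 and Mup7 and 0.84 (0.78) for Mup7 and Mup11. They were then 0.72 (0.65) for Mup1 and Mup11 and 0.79 (0.74) for Mup10 and Mup11. These values describe 22 points of 4 groups that share reads among near-identical genes and share depth and scaling.

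Outside the family, the 6 genes most like the Mup sum among 8903 candidates were Kmo (Pearson r 0.83, n = 22 libraries), Ugt2b5 (0.82), Ugt2b35 (0.79), Ugt2b36 (0.77), Ftsj1 (0.77) and Zdhhc6 (0.75). Kmo encodes a kynurenine hydroxylase, the Ugt2b genes encode enzymes that add glucuronic acid to steroids and drugs, Ftsj1 encodes a tRNA methyltransferase and Zdhhc6 a palmitoyltransferase. Kmo ranged from 144 to 239 CPM and Ugt2b5 from 193 to 598 CPM over the libraries. The 3 least alike were Pnrc1 (-0.77), a nuclear receptor coregulator, Shank3 (-0.77), a scaffold protein, and Sema6d (-0.76), a semaphorin. Of 6 male-biased genes set against the sum, Cyp4a12a had an r of 0.56, Elovl3 0.54, Cyp2d9 0.52, Slco1a1 0.39, Selenbp2 0.31 and Hsd3b5 0.25. Ghr had one of 0.30, Stat5b -0.43 and Alb, the albumin gene, -0.56. Mup7 was also used in place of the sum, a choice made after the values were seen. Another male-biased gene, Cyp7b1, then had the highest r of the 8903 candidates, 0.81. With Mup7 the 6 male-biased genes had values from 0.25 for Hsd3b5 to 0.63 for Cyp2d9.

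Each title carries a number whose meaning the labels do not give, and the libraries with the lowest numbers had the highest level of Mup20. The largest gap between the numbers of the 22 libraries separates 967 to 1025 (5 libraries, at least 1 in each group) from 1519 and above (17 libraries). In each of the 4 groups Mup20 was highest in the libraries below the gap. It was 2460 CPM there in KO fasted, against 851 to 1962 CPM above the gap, and 2320 CPM in control fasted, against 617 to 1712 CPM. In KO fed it was 1900 CPM, against 918 to 1357 CPM, and in control fed 2553 and 3634 CPM, against 1171 to 1296 CPM. The same was so in 3 of 4 groups for Mup7 and for the sum, and in 1 for Mup3. This split was chosen after the values were seen. With it as a term in the edgeR fit, no member was called in any comparison, the SE of Mup20 in KO against control fed livers was 0.23 and its log2 fold change -0.30. Above the gap the sum was between 6002 and 10650 CPM in 5 KO fed livers, against 9584 to 11280 CPM in 3 control fed livers.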

How the data were processed

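Liver RNA selected with oligo-dT, per the labels' protocols, was sequenced in 24 libraries. The deposited counts of reads per gene came, per the submitters' processing notes, from bcl2fastq, STAR 2.5.1a and featureCounts 1.4.6-p5 (Subread) on GRCm38. The annotation release, strand setting and treatment of reads with several matches were not given in the sources used here. Counts of close paralogs and of overlapping genes are therefore uncertain. The deposited CPM values equal count over library total, and the deposited RPKM values equal CPM per kb of the length column, both checked against the counts, which alone entered the tests. Gene symbols came from GENCODE M21 and matched 97.3% of IDs.

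The Mup genes, gene lists and comparisons were chosen with earlier results of these data known. The 22 libraries entered 1 robust quasi-likelihood fit over 4 groups in edgeR 4.0.16 (R 4.3.3), with TMM factors, filterByExpr (minimum count 10, minimum total 15) and Benjamini-Hochberg adjustment over 16757 genes; genes with an adjusted p under 0.05 were called. Standard errors are the log2 fold change over the square root of F. TMM-scaled CPM are used as levels, with a prior count of 2 in logs. The precision of a value is set by its spread between libraries more than by depth: each member had at least 83 reads in every library. Within groups no 2 libraries agreed within sampling noise. The procedure was also run on simulated counts, with changes put into randomly chosen genes of the control fasted group only. How often it finds changes in genes that vary as much as Mup1, Mup7 or Mup11 was not tested.

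The text names all 7 members and the 6 genes most and 3 least like the sum. From each of the regulator, sex-biased and lipocalin lists it names up to 4 genes with the smallest p, and any regulator it counts. Named outside this rule were Stat5b, Zhx2, Cdh5, Kdr, Mup-ps13, Ddx3y, Xist and the promoter motif TATATAA. So were Mup12, Mup18, Mup22 and the list genes set beside the sum or Mup7. Sequences are from RefSeq (GRCm38.p6). Alternatives were RLE factors, library totals, scaling without the Mup and the 20 most abundant genes, a filter of 1 count only, a filter on mean CPM of 1, DESeq2 1.42.0, limma 3.58.1 (voom with sample weights, or with nearby title numbers as random blocks), only the groups compared, the kidney-like library added, each library left out and, chosen after seeing the data, title numbers as a covariate.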

Additional observations from a re-analysis of the deposited data

Results flagged for a closer look

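Dixon's ratio, the gap to the next library over the range of the group, was taken on CPM and not on log2 levels. Over 32 groups of libraries (7 genes and the sum in 4 groups), the highest or lowest library stood apart in 2. Chance gives about 1 in 20, so 2 flags are near that rate, and the 32 groups share reads and libraries. Mup11 was at 717.2 CPM in control fasted 3, against 201 to 298 CPM in the other 4 control fasted libraries. Mup21 was at 368.4 CPM in KO fasted 5, against 150 to 201 CPM in the other 5 KO fasted libraries. Both libraries carry title numbers below the largest gap in the numbers, 1024 for control fasted 3 and 1025 for KO fasted 5.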

How the results depend on the processing

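No member was called in any of the 7 comparisons under any of up to 33 alternatives, and the smallest adjusted p of any member in any of them was 0.196. Of 1596 recomputed member fold changes, 1535 kept their direction and 61 changed sign, all of them uncalled. With the kidney-like library the sum's log2 difference was -1.93 for fasting in control and 1.49 for KO against control fasted.
With that library, KO against control fasted was 0.065 for Mup1, 0.19 for Mup3, 0.14 for Mup7, 0.17 for Mup10, 0.053 for Mup11 and 0.24 for Mup20, and fasting averaged was -0.10 for Mup1. For fasting in KO, sample weights gave -0.035 for Mup11, and the random block -0.065 for Mup7 and -0.10 for Mup11. For fasting averaged, Mup1 was -0.12 with sample weights and -0.10 with the block. With title numbers as a covariate, fasting averaged was 0.001 for Mup10 and KO against control fasted 0.013 for Mup20.
Leaving out each library in turn, fasting in KO ranged from -0.145 to 0.036 for Mup3, -0.05 to 0.39 for Mup7, -0.15 to 0.39 for Mup11, -0.071 to 0.32 for Mup20 and -0.24 to 0.071 for Mup21. Fasting averaged ranged from -0.10 to 0.24 for Mup1, -0.096 to 0.029 for Mup10 and -0.28 to 0.009 for Mup20. KO against control fasted ranged from -0.47 to 0.058 for Mup1, -0.16 to 0.017 for Mup3, -0.31 to 0.12 for Mup7, -0.22 to 0.02 for Mup10, -0.49 to 0.26 for Mup11 and -0.25 to 0.23 for Mup20, and the interaction from -0.05 to 0.33 for Mup21. The cause was not tested.
Without each library in turn, KO against control fed stayed negative for every member, from -1.62 to -0.997 for Mup1, -0.82 to -0.33 for Mup20 and -0.33 to -0.16 for Mup3. The sum's difference ranged from -0.51 to -0.34 for KO against control fed, -0.44 to -0.24 for fasting in control, -0.13 to 0.13 for fasting in KO and -0.22 to 0.04 for KO against control fasted.
Over all alternatives the genes called were 379 to 1304 for fasting in KO, against 1029 in the main result, 805 to 1646 for fasting in control, against 1360, and 1529 to 2662 for fasting averaged, against 2404. They were 0 to 68 for KO against control fed and 0 to 3 in fasted livers, against 1 each, 1 to 37 averaged, against 6, and 0 to 6 for the interaction, against 1. The Cux2 call was also lost with sample weights (adjusted p = 0.113) and with the block (0.0602). With the kidney-like library, calls in KO fasting were lost for Fmo2 (0.155), Egfr (0.567), Ppara (0.0846), Igfals (0.458), Hnf4a (0.117) and Rbp4 (0.856), and in control fasting for Alas2 (0.0732), Ppara (0.0927), Orm1 (0.333), Orm2 (0.269), Ambp (0.607) and Rbp4 (0.819). Over the alternatives the adjusted p of Cdh5 was 0.000976 to 0.406, that of Kdr 0.00116 to 0.222 and that of Mup-ps13 0.00448 to 0.118.
No paired analysis was possible because the title numbers are unique to each library; clusters of nearby numbers had a correlation of -0.013 in the random block fit.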
